A study of Arabidopsis thaliana with 12 samples.

Results

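The 87 genes described here had transcript rhythms that peaked from CT4 to below CT8, the middle of the subjective day, in Arabidopsis seedlings kept in constant white light. They were selected on the measured rhythm itself among 7996 nuclear genes with a mean intensity of at least 100 over 12 arrays. A 24 h cosine with a linear trend was fitted to log2 intensity, and a gene was taken when 3 values passed. These were a fitted amplitude (mean to peak) of at least 0.25 on the log2 scale, a correlation of at least 0.7 between the values of 24 h to 44 h and those of 48 h to 68 h, and a fitted peak inside the window. Members of 8 gene families recognized by their symbols were left out, which removed LHCB4.1, LHCB4.2, EXPA8 and UGT72E1 from this window. The same amplitude and correlation, with the peak at any time, were met by 342 genes, so the mid-day genes make up 25.4% of them and 1.09% of the 7996. Because amplitude, peak time and repeatability chose the genes, those values are given as a description and were not tested.

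All 12 samples were whole seedlings of the Col-0 ecotype, wild type apart from a CCR2::LUCIFERASE reporter that every one of them carried. CCR2 is a clock-regulated gene, and the reporter makes its promoter activity visible as luminescence. Seedlings grew for 7 d in cycles of 12 h light and 12 h dark on medium with 3% sucrose at 22 °C, then in constant white light, and were frozen every 4 h from 24 h to 68 h of constant light. Circadian time (CT) 0 is subjective dawn and falls at 24 h and 48 h, so 6 circadian times were each measured on 1 array in each of 2 cycles. There was 1 array per harvest and no replicate, so the errors given are those of the fitted curve.

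The plant circadian clock is a set of genes that repress and activate each other in a daily loop and go on cycling when light no longer changes. Through these factors the clock sets the hour at which many other transcripts are most abundant. Genes of photosynthesis and growth are among its well-known outputs, and many of them are most abundant in the day.

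Array medians lay between 149.9 and 153.6. By the array records, 7 arrays (24 h and 32 h to 52 h) were scanned on one day, 4 (56 h to 68 h) on another and the 28 h array on a day of its own. The arrays that close the second cycle therefore have a scan day to itself. Leaf and root transcripts were both measured in these whole seedlings: RCA, which encodes Rubisco activase, had a mean intensity of 10081 and the root transcript PYK10 one of 10066. Of the root markers EXPA7 and EXPA18, the means were 206 and 384. In whole seedlings a change in the cells that express a gene and a change in RNA per cell cannot be told apart.

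The shape shared by the 87 genes was a maximum at CT4 or CT8 and a minimum at CT16 or CT20. The highest array was CT4 or CT8 in both cycles for 83 of 87 genes. The exceptions were TRXF2 and AT3G05620, highest at CT0 in the second cycle, AT4G17245, highest at CT0 in the first, and ARPN, highest at CT12 in the second. All 4 arrays of CT4 and CT8 were above all 4 arrays of CT16 and CT20 in 83 genes. The other 4 were AT2G21045, AT5G10830, AT5G40450 and AT4G24710. At 40 h and at 44 h no gene was above its own mean of the 12 arrays, whereas at 56 h all 87 were. The rule chose genes by a fitted peak from CT4 to below CT8, by amplitude and by repeatability. The counts in this paragraph therefore largely restate the selection, and they were not made for genes outside the set.

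**Figure D1:**
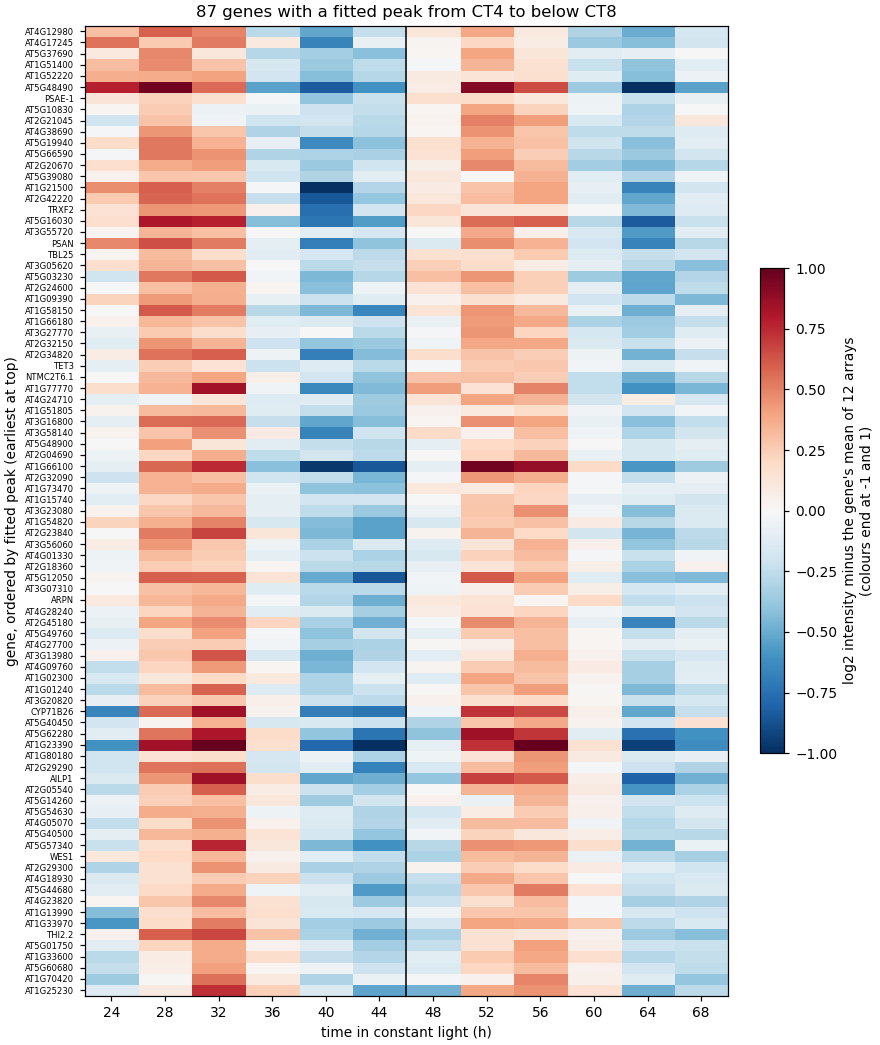
Heat map of the 87 genes (rows, earliest fitted peak at the top) in the 12 arrays (columns, time in constant light in h). Colour is log2 intensity minus the gene's own mean, red for higher and blue for lower, with colours ending at -1 and 1. The vertical line separates the cycles. The red columns lie at 28 h, 32 h, 52 h and 56 h, and the blue ones are palest at 68 h.

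Most of these rhythms were shallow. The median fitted log2 amplitude was 0.35, which is a peak-to-trough ratio of 1.63, and 16 of 87 genes reached a ratio of 2 or more. Amplitudes ran from 0.25 to 1.09, with a median standard error of 0.05. In the 7996 genes, for which no minimum was set, the median amplitude was 0.09. Under the same rule it was 0.35 for peaks from CT0 to CT4 and 0.42 for peaks from CT8 to CT12. Fitted peaks had a median of CT5.80 and a median standard error of 0.532 h. By hour, 21 genes peaked from CT4 to CT5, 27 from CT5 to CT6, 27 from CT6 to CT7 and 12 from CT7 to CT8. The period that gave the closest fit had a median of 23.25 h, the same as in the windows from CT0 to CT4 and from CT8 to CT12.

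The edges of the set are soft, since 29 genes lay within 1 standard error of the amplitude minimum and 16 within 1 standard error of CT4 or CT8. At the amplitude minimum AT4G28240 was just inside and AT1G63220 just outside, at 0.251 and 0.248. At the correlation minimum the pair was AT1G13990 and AT5G64180, at 0.719 and 0.678. AT4G12980 peaked at CT4.01, and AT1G66760 fell outside at CT3.87. At the late edge AT1G25230 peaked at CT7.95 and AT2G46550 at CT8.08. AT3G05620 had a mean intensity of 102 and was kept, and AT5G59080, at 98.6, was not.

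The deepest rhythm was that of AT1G23390, with a fitted log2 amplitude of 1.09 ± 0.07 (SE) and a peak at CT6.67 ± 0.232 h. Its intensity was 203, 552, 662, 346, 179 and 149.9 from 24 h to 44 h and 288, 511, 660.1, 343, 162 and 201 from 48 h to 68 h. The CT8 array was the highest of both cycles, at nearly the same intensity, and the ratio of highest to lowest array was 4.42 in the first cycle and 4.08 in the second. The CT0 arrays differed most, at 203 and 288. For this gene, as for 76 of the 87, the annotation used here has the locus name as symbol. No function is stated for these genes, apart from AT1G52220, for which a synonym is given.

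AT1G66100 came next, at a log2 amplitude of 0.96 ± 0.05 (SE) and a peak at CT5.65 ± 0.20 h. Its intensities were 141, 225, 253, 113, 77.2 and 83.7 in the first cycle and 142, 295, 277, 173, 101 and 118 in the second. Each array of the second cycle was above its partner of 24 h earlier, and both cycles had their trough at CT16. AT5G48490 peaked earlier, at CT4.35 ± 0.254 h, with a log2 amplitude of 0.95. It measured 878, 999, 759.8, 353, 288 and 337, then 540.1, 969, 804, 397, 239 and 353. Its first cycle began high at subjective dawn, at 878, while the dawn array of the second cycle stood at 540.1.

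CYP71B26 encodes a cytochrome P450, a member of a large class of oxygen-using enzymes of plant secondary metabolism. Its log2 amplitude was 0.80 ± 0.07 (SE) and its peak CT6.40 ± 0.339 h. The intensities were 168, 392, 476, 271, 164 and 160.0 in the first cycle and 257, 436, 419, 274, 185 and 226 in the second. The peak array thus moved from CT8 to CT4 and the trough from CT20 to CT16. It was the 1 member among 15 P450 genes at the intensity minimum, too few to set against the 1.09% of all genes that are members. AILP1 peaked at CT6.72 with a log2 amplitude of 0.71 and was far more intense, at 1213, 1825, 2416, 1514, 938 and 958 and then 1028, 2159, 2048, 1403, 766 and 959.6. Here too the highest array passed from CT8 to CT4.

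**Figure D2:**
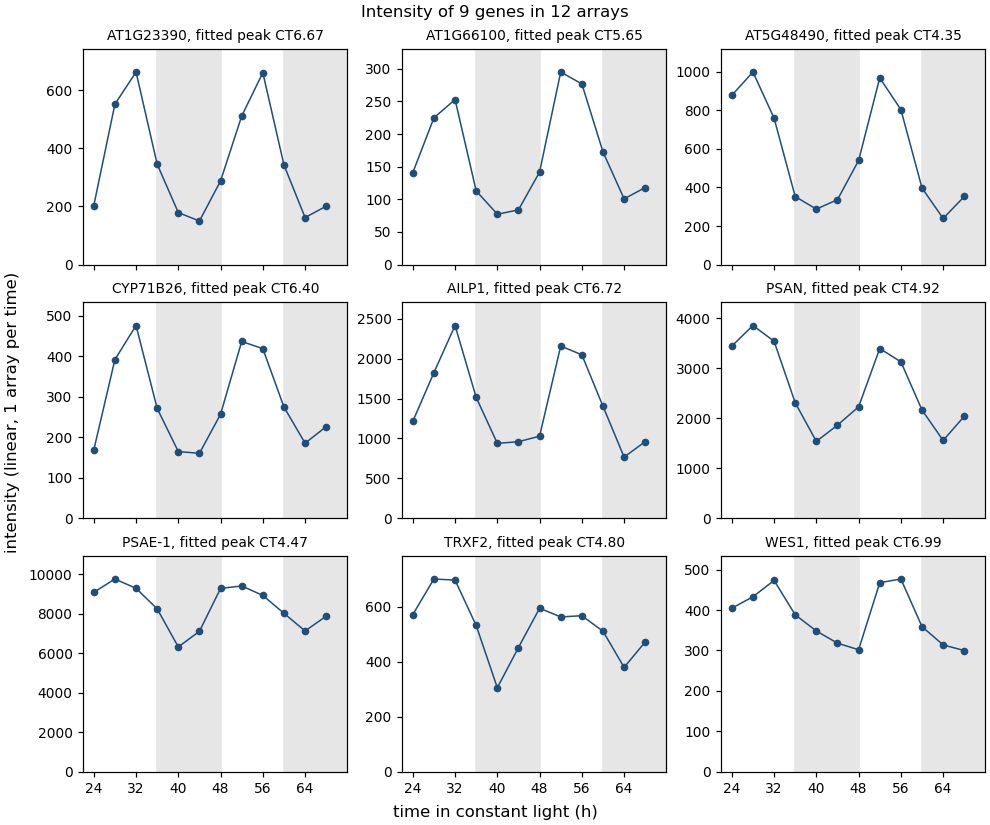
Linear intensity (y axis, starting at 0) of 9 genes against time in constant light (x axis, h), 1 point per array, with subjective night shaded. The top row holds the 3 deepest rhythms, whose highest and lowest arrays differ 2.93- to 4.42-fold within a cycle. PSAE-1, with a fitted peak-to-trough ratio of 1.43, is the shallowest of the 9.

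The remaining genes among the 20 deepest had fitted log2 amplitudes between 0.48 and 0.78. AT5G16030 and AT5G62280 followed CYP71B26, at 0.78 and 0.77, with peaks at CT4.83 and CT6.65. AT5G12050 was at 0.63 and AT1G21500 at 0.60. AT1G21500 had its lowest value, 376, at 40 h, and measured 500.5 at the same circadian time a cycle later. AT2G42220 (0.58), AT1G58150 (0.56), AT1G77770 (0.55), AT3G16800 (0.55), AT5G57340 (0.54) and AT2G34820 (0.51) had peak-to-trough ratios above 2. AT1G25230, AT5G03230, AT5G19940 and AT2G45180, at 0.50 to 0.48, were just below that ratio. The correlation between cycles reached 0.988 in AT3G16800, the highest of the set.

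**Figure D3:**
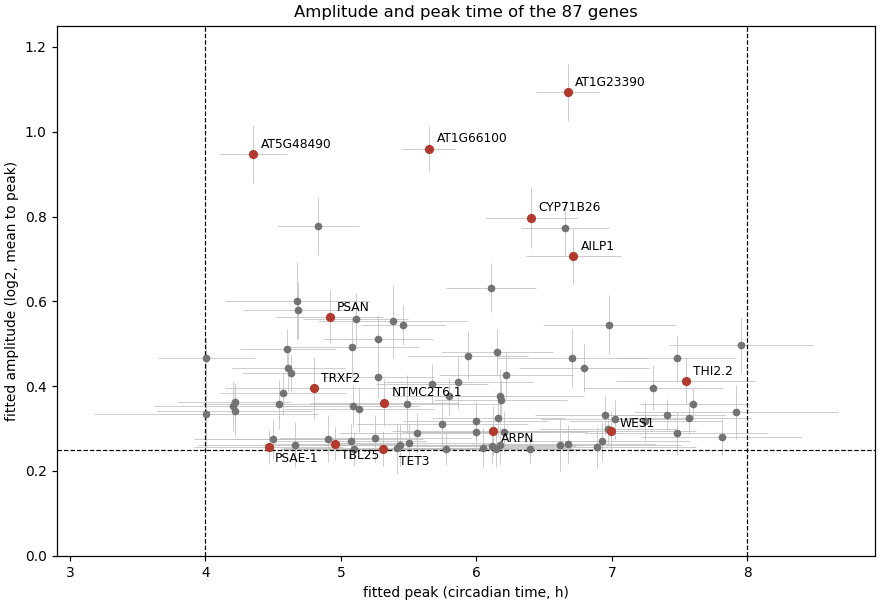
Fitted log2 amplitude (y axis) against fitted peak in circadian time (x axis, h) for the 87 genes, with bars of 1 standard error. Dashed lines mark the limits of CT4, CT8 and amplitude 0.25 that chose the genes, and red points carry a gene symbol or one of the 3 highest amplitudes. Many points sit close to the lower limit, and 5 of the 11 genes with a symbol of their own lie below 0.3.

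Photosynthesis genes were few by name but among the most intense. PSAN encodes a photosystem I subunit on the lumen side of the thylakoid membrane, where plastocyanin delivers electrons. Its intensities were 3442, 3853, 3538, 2307, 1535 and 1859 in the first cycle and 2227, 3393, 3126, 2162, 1553 and 2037 in the second, with a fitted peak at CT4.92 ± 0.392 h and a log2 amplitude of 0.56 ± 0.06 (SE). The CT4 array was highest and the CT16 array lowest in both cycles. PSAE-1 encodes a subunit on the stromal side of the same photosystem, near the ferredoxin docking site. It was the most intense of all 87, at a mean of 8380, and ran 9094, 9771, 9299, 8257, 6324 and 7116 and then 9293, 9418, 8937, 8029, 7134 and 7885. Its peak was CT4.47 ± 0.552 h and its log2 amplitude 0.26 ± 0.04 (SE), less than 1 standard error above the minimum of the rule. After quantile normalization the amplitude of PSAE-1 was 0.17, and without the 40 h array 0.21, so it left the set under both, while PSAN stayed at 0.51 or more.

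A list of photosystem and related thylakoid genes had 7 genes at the intensity minimum, none of them for a light-harvesting protein. Of these, 5 had a fitted peak from CT4 to CT8, against 21.0% of all 7996 genes. Besides PSAN and PSAE-1 these were PSBW, PSB27 and PGRL1B, with log2 amplitudes of 0.21, 0.15 and 0.08, too low for the rule. Their peaks had standard errors of 0.658 h, 1.09 h and 1.80 h, and their correlations between cycles were 0.953, 0.514 and -0.365. PSBY peaked at CT3.72 and NdhN, a subunit of the chloroplast NADH dehydrogenase-like complex, at CT16.9. In the wider class of photosystem, thylakoid or chlorophyll genes picked by name, 4 of 17 (23.5%) had a fitted peak in the window, close to the share of all genes. The list was written with earlier results of these data known, the fitted peak is a value the rule used, and no enrichment was tested.

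AT1G52220, for which the annotation gives the name CURVATURE THYLAKOID 1C, belongs to a family of proteins that bend the edges of grana. It measured 1476, 1486, 1519, 1004, 857 and 942, then 1224, 1257, 1282, 1054, 853 and 1102, and peaked at CT4.22 with a log2 amplitude of 0.34. Its first cycle was level from CT0 to CT8 and lower from CT12 on. TRXF2 encodes a chloroplast thioredoxin of the f type, which passes reducing power from ferredoxin to Calvin cycle enzymes. Its intensities were 571, 701, 697, 532, 305 and 451 in the first cycle and 594, 563, 567, 511, 379 and 472 in the second. The first cycle had a clear crest at CT4 and CT8, and the second was flat from CT0 to CT8, with a fitted amplitude 0.499 times that of the first. TRXF2 was the 1 member among 14 redox genes at the minimum, too few to set against the 1.09% of all genes that are members. Of the 14, 8 had a fitted peak in the window, against 21.0% of all genes, at mostly small amplitudes (list median 0.09). Standard errors of these peaks ran from 0.551 h in AT5G66390 to 3.15 h in TY1. In the wider class of 70 redox proteins picked by name, 20 (28.6%) had a fitted peak in the window and 1 (1.43%), TRXF2 again, was a member.

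WES1, also known as GH3.5, is an enzyme that joins the hormone auxin to amino acids and so takes it out of the active pool. Its intensities were 405, 433, 473, 388, 348 and 318, then 302, 468, 477, 359, 314 and 299.6. The maximum was at CT8 and the trough at CT20 in both cycles, and the fitted peak was CT6.99 ± 0.626 h at a log2 amplitude of 0.29 ± 0.05 (SE). It was the 1 member among 7 auxin genes measured at the minimum, a list too short to read against the share of 1.09%. GH3.17, of the same enzyme family, peaked at CT3.27 with a log2 amplitude of 0.19, and HAT2, an auxin-induced transcription factor gene, at CT6.82 with 0.14. With LBD16 and YUC2, 4 of the 7 had a fitted peak in the window, against 21.0% of all genes. LBD16 and YUC2 had log2 amplitudes of 0.13 and 0.06 and peak standard errors of 1.03 h and 3.71 h. Enrichment was not tested. No gene of the clock, light signaling, gibberellin, ethylene, brassinosteroid, jasmonate, Calvin cycle, chlorophyll and carotenoid, starch and sugar, nitrogen and sulfur, phenylpropanoid, chaperone, cell wall, cytosolic ribosome or cold lists entered the set. These lists held from 1 gene (clock) to 14 genes (nitrogen and sulfur) at the intensity minimum, too few to read against the share of 1.09%. They were matched by name, and 13.4% of the 7996 genes had a symbol other than the locus name. GI, the 1 gene of the clock list that was named and at the intensity minimum here, peaked later, at CT10.5.

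The other genes with a symbol had modest rhythms. THI2.2 encodes a thionin, a small cysteine-rich peptide of a class with antimicrobial activity. It measured 272, 400.2, 419, 322, 212 and 189 in the first cycle and 212, 294, 285, 273, 206 and 196 in the second, so that the second crest was lower while the troughs were alike. ARPN, which encodes plantacyanin, a blue copper protein, measured 286, 335, 347, 262, 217 and 190.4 and then 287, 293, 269.6, 306, 225 and 229. In the second cycle its highest array was CT12, with a lower local maximum at CT4, and its fitted amplitude was 0.415 times that of the first. TBL25, of a family of cell wall acetyltransferases, peaked at CT4.96 and TET3, a tetraspanin of the cell membrane, at CT5.31, both close to the minimum amplitude at 0.26 and 0.25. NTMC2T6.1 peaked at CT5.32, with a log2 amplitude of 0.36.

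A mean intensity of 1000 or more was found for 13 of the 87 genes (14.9%), against 6.69% of the 7996 genes at the minimum. The neighbouring windows under the same rule had 12.5% (CT0 to CT4) and 22.1% (CT8 to CT12), and their median intensities were 396 and 396, beside 371 for the mid-day genes. After PSAE-1, the highest means were those of AT1G51400 at 5155, AT2G45180 at 4405 and PSAN at 2586. AT2G45180 had its maximum at 32 h, 5933, and at 52 h, 5934, and its minimum at 44 h, 3060.2, and at 64 h, 2703. The rule asked for a repeatable curve. Whether bright probe sets meet it more easily was not tested, nor was the part of signal level in this share.

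The other 59 genes, below the 20 deepest and known by locus name, had log2 amplitudes from 0.25 to 0.47 and a median of 0.32. By fitted peak, 12 of them fell from CT4 to CT5, 19 from CT5 to CT6, 18 from CT6 to CT7 and 10 from CT7 to CT8. AT2G23840 and AT4G12980 led them, both at 0.47, with peaks at CT5.94 and CT4.01, followed by AT1G33970 at 0.47 and CT7.48 and AT2G05540 at 0.44 and CT6.79. Mean intensities went from 102 in AT3G05620 to 5155 in AT1G51400. Their second-cycle amplitude was the smaller one in 45 of 59.

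The members were spread over all 5 chromosomes, with 23, 15, 12, 13 and 24 genes on chromosomes 1 to 5. One pair, AT2G29290 and AT2G29300, were direct neighbours with no coding gene between them. AT2G29290 measured 358, 595, 603, 361, 381 and 257, then 369, 512, 549, 408, 356 and 334, and peaked at CT6.70. AT2G29300 measured 121, 165, 203, 159, 119 and 121, then 152, 177, 169.6, 158, 138 and 129.6, and peaked at CT7.03. Whether the probes of either gene also bind the other transcript was not tested.

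Most of the rhythms were shallower in the second cycle. Cosines fitted to each cycle alone gave a smaller amplitude from 48 h to 68 h than from 24 h to 44 h in 68 of 87 genes, with a median ratio of 0.798. The median log2 amplitude was 0.38 in the first cycle and 0.33 in the second. Genes that met the same rule with a peak from CT0 to CT4 had a median ratio of 0.687, and those from CT8 to CT12 one of 0.798, so the neighbouring windows also had medians below 1. Over all 7996 genes, for which no amplitude minimum was set, the median ratio was 0.955. The share of all genes with a smaller second amplitude was not counted. Ratios under 0.5 were found in 6 genes, down to 0.322 in AT1G73470, and over 1.5 in 3, up to 1.69 in AT3G27770. The second-cycle arrays at 56 h to 68 h were scanned apart from the others, so scan day and cycle cannot be told apart here.

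Peaks came earlier in the second cycle in 57 genes and later in 30, with a median shift of -0.59 h. Under the same rule the median shift was -0.85 h for peaks from CT0 to CT4 and -0.41 h for peaks from CT8 to CT12. Over all 7996 genes, most of them without a clear rhythm, it was 0.20 h. The highest and lowest arrays, the same values that these fits used, were displaced too. CT8 was the highest array of 54 genes in the first cycle and of 42 in the second, and CT4 of 32 and then 42. The trough moved further, from CT20 in 46 genes and CT16 in 36 to CT20 in 14 and CT16 in 66. The largest shift was in NTMC2T6.1, from CT6.70 to CT3.96, and AT1G13990 moved from CT8.95 to CT6.24. In the other direction AT3G56060 went from CT4.91 to CT6.87. Single-cycle fits rest on 6 arrays, each count above on 1 array per time, and none of this was tested. Scan day and cycle cannot be told apart for these shifts either.

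**Figure D4:**
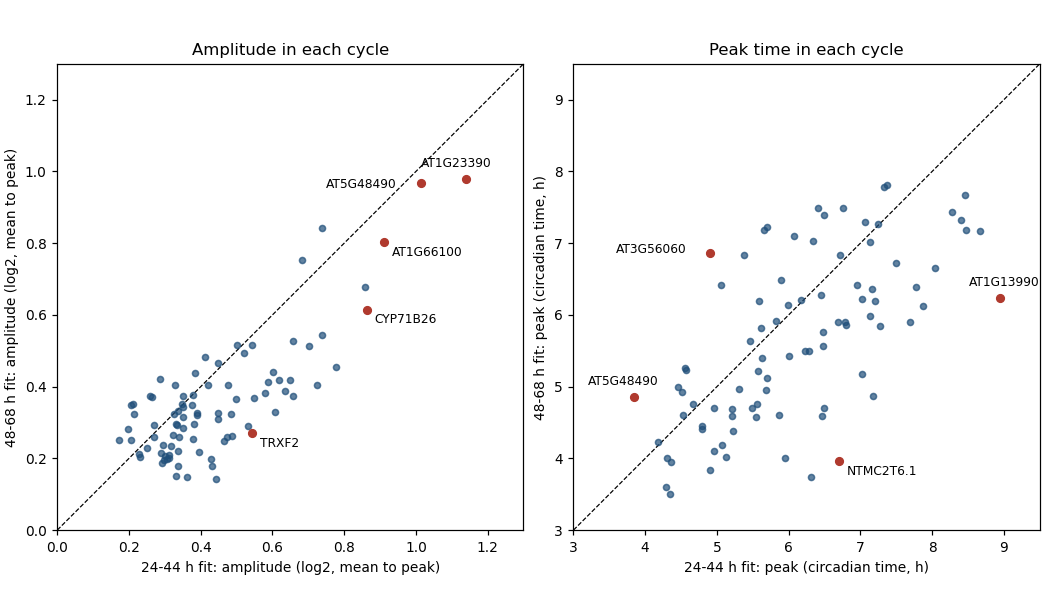
Each point is 1 of the 87 genes, with the first-cycle fit (24 h to 44 h) on the x axis and the second-cycle fit (48 h to 68 h) on the y axis, for log2 amplitude at left and peak in circadian time (h) at right. The dashed line marks equal values. Of the amplitudes, 68 points lie below the line, and of the peaks 57 do.

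Pairs of arrays 24 h apart show where the cycles differed. At CT20 the second cycle was higher in 71 of 87 genes, by a median of 0.14 on the log2 scale, against 57.1% and 0.03 for all 7996 genes. At CT8 it was higher in 29 genes, with a median of -0.11, against 43.9% and -0.02 for all genes. The CT4 pair went the same way as CT8, with 37 higher (42.5%, against 49.2% of all genes) and a median of -0.05, and compares scan days 1 and 3. At CT12 and CT16 there were 46 and 38 higher (52.9% and 43.7%), against 56.2% and 53.1% of all genes. The pairs from CT8 to CT20 all compare scan days 2 and 1. The CT0 pair, both of scan day 1, was higher in 51 genes (58.6%, against 49.3%), by a median of 0.04.

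**Figure D5:**
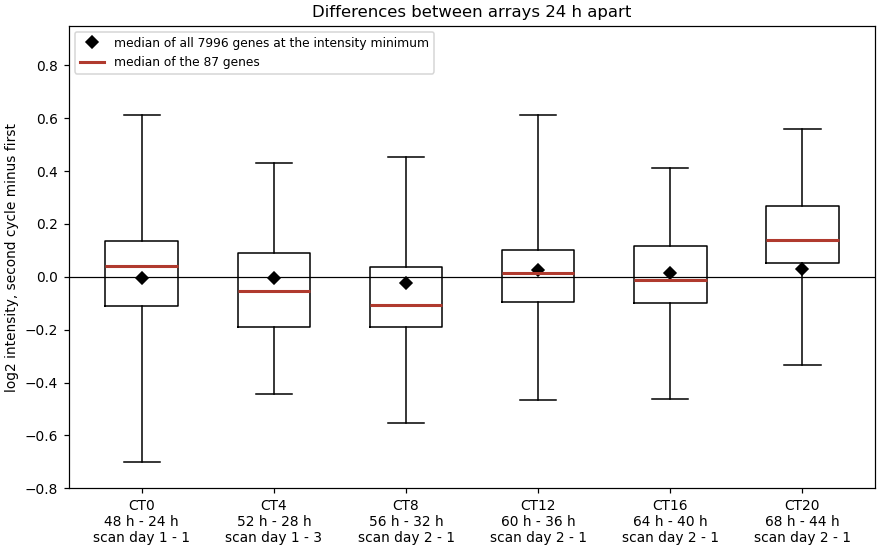
Box plots of the log2 intensity difference between the array of the second cycle and that of the first at each circadian time (x axis, with the scan day of each array) for the 87 genes. Boxes span the quartiles, whiskers the whole range, red lines are the members' medians and diamonds those of all 7996 genes. The members' median is lowest at CT8, -0.11, and highest at CT20, 0.14.

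The overall level from one day to the next is a measure the rule used only in part, since a correlation is blind to a shift of the whole cycle but favours little scatter. It was tested in limma with circadian time as a factor. None of the 87 genes differed between the days at an adjusted p below 0.05, in a background where 1 of 7996 genes was higher on the second day (0.0125%) and none was lower (0%). At an unadjusted p below 0.05 there were 11 members (12.6%), against 907 of all genes (11.3%). With a linear trend in place of the day term, limma called no member and 8 of all genes, and the lowest adjusted p of a member was 0.0531. The test had 5 residual degrees of freedom per gene.

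The largest positive difference in level was that of AT1G66100, 1.26-fold, from a geometric mean of 134 to 169.5, or 0.34 ± 0.08 (SE) on the log2 scale, higher in 6 of 6 pairs but with an adjusted p of 0.256 in limma. In the CT0 pair, the one measured within a single scan day, its difference was 0.01. CYP71B26, AT2G21045 and AT4G24710 followed, at 0.21, 0.21 and 0.20, each higher in 5 of 6 pairs. At the low end were THI2.2 at -0.27 (higher in 1 of 6 pairs), AT4G17245 at -0.22, AT1G09390 at -0.20 and PSAN at -0.16. AT1G09390 was lower in every pair, from 171, 197, 189, 139, 126 and 135 to 151, 164, 157, 128, 122 and 107, with an adjusted p of 0.256 in limma. The median of the 87 genes was 0.01, and that of all 7996 genes 0.01.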

How the data were processed

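The authors deposited linear intensity values of 22810 probe sets on 12 arrays, already brought to a common scale. The submitters' notes name MAS5 and the methods name dChip for expression, and the sources used here do not settle which of them made the table. Of the deposited array records, the scan day alone was taken. Through the platform annotation in GEO and RefSeq (TAIR10.1), names were given to 13415 probe sets of 13264 nuclear genes, with 503 of several symbols left out, and the probe set with the highest mean stood for each gene. Intensities under 1 were set to 1 before log2. Fits used numpy 2.4.6 and limma 3.58.1 (R 4.3.3), whose day test was Benjamini-Hochberg adjusted over 7996 genes, and were tested on simulated data. The members and gene lists were chosen with earlier results of these data known. Named genes were the 20 with the largest amplitude, members on a list or in a class, 4 at each end of the day difference, 4 with the highest mean and those beside each threshold. The other genes with a symbol and other extremes were named after their values were seen. No harvest was repeated, so p-values reflect scatter among the arrays, whose small number limits precision. Alternatives were no trend, quantile normalization, log2(value + 32), other thresholds, scan day, free period and each array left out. Promoter and protein sequences were not used here.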

Additional observations from a re-analysis of the deposited data

How the results depend on the processing

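The number of genes depended most on the amplitude minimum: at 0.3 in place of 0.25 it was 57, and at 0.2 it was 124. The other settings gave 66 to 95, and leaving out 1 array gave 66 (without 32 h) to 102 (without 40 h). Of the 87 genes, 72 were kept after quantile normalization, 67 with log2(value + 32), 76 without the trend and 71 with scan day in the fit. The median log2 amplitude stayed between 0.33 and 0.36, the median peak between CT5.65 and CT6.08, and the median cycle ratio between 0.793 and 0.820, including a trend removed before the single-cycle fits, a setting chosen after seeing the data. The cycle ratio was not refitted with scan day or with an array left out. The day test in limma was repeated with quantile normalization, log2(value + 32), mean minimums of 50 and 200, no probe sets that match several transcripts, a linear trend, scan day as a block, an adjusted p below 0.01 and each array left out. No member was called in these, and with an array left out the lowest adjusted p of a member was between 0.146 and 0.64. With circadian time as a factor, leaving out 1 array also takes its partner 24 h away out of the day term. Leaving out either array of a pair therefore gave the same result. With scan day as a block, only the CT0 pair informs the day term. Of 510 amplitudes of 34 named members, 475 stayed within 1 standard error, and log2(value + 32), which damps low intensities, moved 12. Scan day in the fit was not among these settings. Most of the 510 came from fits without 1 array, which share all their arrays with the main fit.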
